A study of Mus musculus with 32 samples.

Results

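The genes described here are 10 products of goblet cells, the mucus-secreting cells of the intestinal epithelium: Muc2, Retnlb, Clca1, Zg16, Agr2, Spink4, Spdef, Tff3, Fcgbp and Gcnt3. They were taken by name as a group of mucin and goblet cell genes, and every bead array probe carrying one of these symbols, or the older symbol Clca3 for Clca1, was followed. This gave 11 of the 45281 probes on the array, 1 for each gene and 2 for Clca1. The levels come from 32 arrays (Illumina MouseWG-6 v2.0, single-colour bead arrays that read the brightness of each probe) of small intestinal RNA from C57BL/6J mice aged 120 days.

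Goblet cells make the mucus layer that separates the epithelium from the gut contents. Muc2 is its gel-forming mucin, which Agr2, a protein disulphide isomerase of the endoplasmic reticulum, helps to fold, and which glycosyltransferases such as Gcnt3 decorate with branched sugar chains. Clca1, Fcgbp, Zg16 and Tff3 are secreted into the mucus with Muc2, Retnlb is a resistin-like protein best known for its induction by type 2 cytokines, Spink4 is a secreted peptide of the Kazal type and Spdef is the transcription factor that drives goblet cell maturation. In the normal gut the choice between the secretory and absorptive fates is made by Notch and Atoh1, and Wnt signals keep the crypt base proliferating.

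The arrays fall into 8 groups. The 4 crypt groups, of 3 arrays each, are epithelium released from the small intestine with EDTA: wt, wt carrying villin.Cre/+, a Pygo1/2 DKO and a Bcl9/B9l DKO. The Pygo1/2 DKO is Pygo1-/- and carries Pygo2 LoxP/LoxP together with villin.Cre/+. The Bcl9/B9l DKO carries LoxP/LoxP alleles of both Bcl9 and B9l together with villin.Cre/+. The 4 adenoma groups are excised whole from ApcMin/+ mice, which carry a germline Apc mutation: ApcMin alone (9 arrays), ApcMin with the Pygo1/2 DKO (5), ApcMin with the Bcl9/B9l DKO (3) and ApcMin with all 4 of these alleles and villin.Cre/+ combined (QKO, 3). The proteins Pygo and Bcl9 (with its paralogue B9l) are partners of β-catenin in Wnt-dependent transcription. The villin promoter drives Cre in the intestinal epithelium, so Pygo2, Bcl9 and B9l were deleted there, whereas Pygo1 was missing in every cell. The ApcMin adenomas used as controls carry no villin.Cre by their labels. Each RNA was typically pooled from several extractions of a single mouse by the study's methods, and as no label names the mouse behind an array, the spread that enters each p-value is that between arrays and may be technical.

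Batch 2 of the labelled array batches held ApcMin replicates 4, 6 and 8 and all 3 QKO adenomas, and the other 26 arrays were batch 1. The mean intensity was 307 to 445 in batch 1 and 156 to 217 in batch 2, with 12913 to 16319 and 14081 to 14666 probes detected (detection p-value under 0.01). No pair of arrays correlated above 0.992, and at most 0.738% of probes had the same intensity on both arrays of a pair. Of the targeted genes, Pygo2 was lower in Pygo1/2 DKO adenomas than in ApcMin adenomas (log2 change -1.14 ± 0.15 SE, limma adjusted p = 0.00188), while in QKO adenomas its change was -0.36 ± 0.19 (adjusted p = 0.292). In Pygo1/2 DKO crypts its change was -1.61 ± 0.20 (adjusted p = 0.028). The Pygo2 level was 9.62, 9.83 and 9.81 in QKO adenomas and 8.80 to 9.39 in Pygo1/2 DKO adenomas, with no overlap, and between these 2 groups the change was 0.79 ± 0.23 (adjusted p = 0.0499). For this gene the values go against the QKO label, so QKO names below the adenomas by their label only. No probe of Bcl9 or B9l was lower in its knockout, and it was not checked whether the probes fall in the deleted exons, so that part of the labels could not be tested in this way. The Y-linked Eif2s3y and Kdm5d were detected on all 12 crypt arrays and in all 3 Bcl9/B9l DKO adenomas, and Xist on none of these 15, while Xist was detected in all 6 batch 1 ApcMin and all 5 Pygo1/2 DKO adenomas and in 2 of 3 batch 2 ApcMin and 2 of 3 QKO adenomas. The 3 batch 2 ApcMin adenomas stood apart from the other 6 for Fabp6, the bile acid binding protein of the ileum, at 12.77, 12.97 and 13.02 against 5.38 to 6.54. It was at 12.85 to 14.01 in the 12 crypts and at 4.64 to 5.84 in all knockout adenomas. The members called in QKO against ApcMin adenomas are therefore also given without these 3 arrays, as are some other results. This alternative was chosen after seeing the data. The 6 batch 1 ApcMin adenomas were not uniform either. The summed level of 7 genes that mark intestinal position was 3997 to 21413 in them. It was 4537 to 6066 in Pygo1/2 DKO and 9917 to 13856 in Bcl9/B9l DKO adenomas. The sum did not follow Fabp6, which was low in all of these arrays, so like sums need not mean a like position. The part of position in the changes between these groups was not tested.

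Promoter sequence was at hand in the RefSeq table (mouse build GRCm38.p6) for 4 of the 10 genes, Muc2, Agr2, Spdef and Fcgbp. The 250 bases before the transcription start are shown for Muc2 (chr7:141690090-141690339, plus strand) and for Spdef (chr17:27728952-27729201, minus strand), the major mucin and the goblet cell transcription factor. Capitals mark TATAA, the core of a TATA box, and GATAA, the core of a GATA site, on either strand.
Muc2: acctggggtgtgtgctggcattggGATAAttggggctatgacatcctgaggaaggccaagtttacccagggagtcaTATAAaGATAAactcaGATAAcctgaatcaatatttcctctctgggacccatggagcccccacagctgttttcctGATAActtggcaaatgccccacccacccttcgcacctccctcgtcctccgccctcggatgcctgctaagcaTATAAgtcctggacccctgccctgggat
Spdef: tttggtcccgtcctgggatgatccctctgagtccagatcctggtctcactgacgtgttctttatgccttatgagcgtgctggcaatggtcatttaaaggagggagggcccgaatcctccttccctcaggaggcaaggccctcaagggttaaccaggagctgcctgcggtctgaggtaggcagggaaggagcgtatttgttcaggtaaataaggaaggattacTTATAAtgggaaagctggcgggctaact
The Muc2 window held GATAA 4 times and TATAA 2 times. The Spdef window held TATAA once on each strand at a single overlapping place, written TTATAA, and no GATAA. Of 32851 promoter windows of this length in the table, 22.8% held TATAA and 22.6% held GATAA on either strand. The word CTTTGA, the core of a TCF/LEF site at which β-catenin complexes bind, was in neither window nor in those of Agr2 and Fcgbp, against 13.8% of all windows. These matches describe the letters of the windows and nothing was measured at them.

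Levels are given on the log2 scale after background correction and quantile normalization of all 32 arrays together, a scale on which the dimmest probes lie near 4.5. Most of the genes were bright in normal epithelium. In the 12 crypt arrays the level was 12.49 to 13.90 for Muc2, 12.86 to 13.74 for the brighter Clca1 probe, 14.28 to 14.59 for Zg16, 12.87 to 14.32 for Spink4 and 12.98 to 13.65 for Tff3. Gcnt3 (9.85 to 10.42) and Spdef (7.62 to 8.42) were lower, though brightness is set by the probe as well as by the RNA and the genes are not compared with each other. The remaining members sat near the detection limit in crypts: Agr2 at 6.33 to 8.24, Fcgbp detected on 6 of the 12 arrays and Retnlb on 3 of the 12. Goblet cell RNA was thus present on all 32 arrays, as Muc2, Clca1, Zg16, Spink4, Tff3, Spdef and Gcnt3 were detected on every array.

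**Figure D1:**
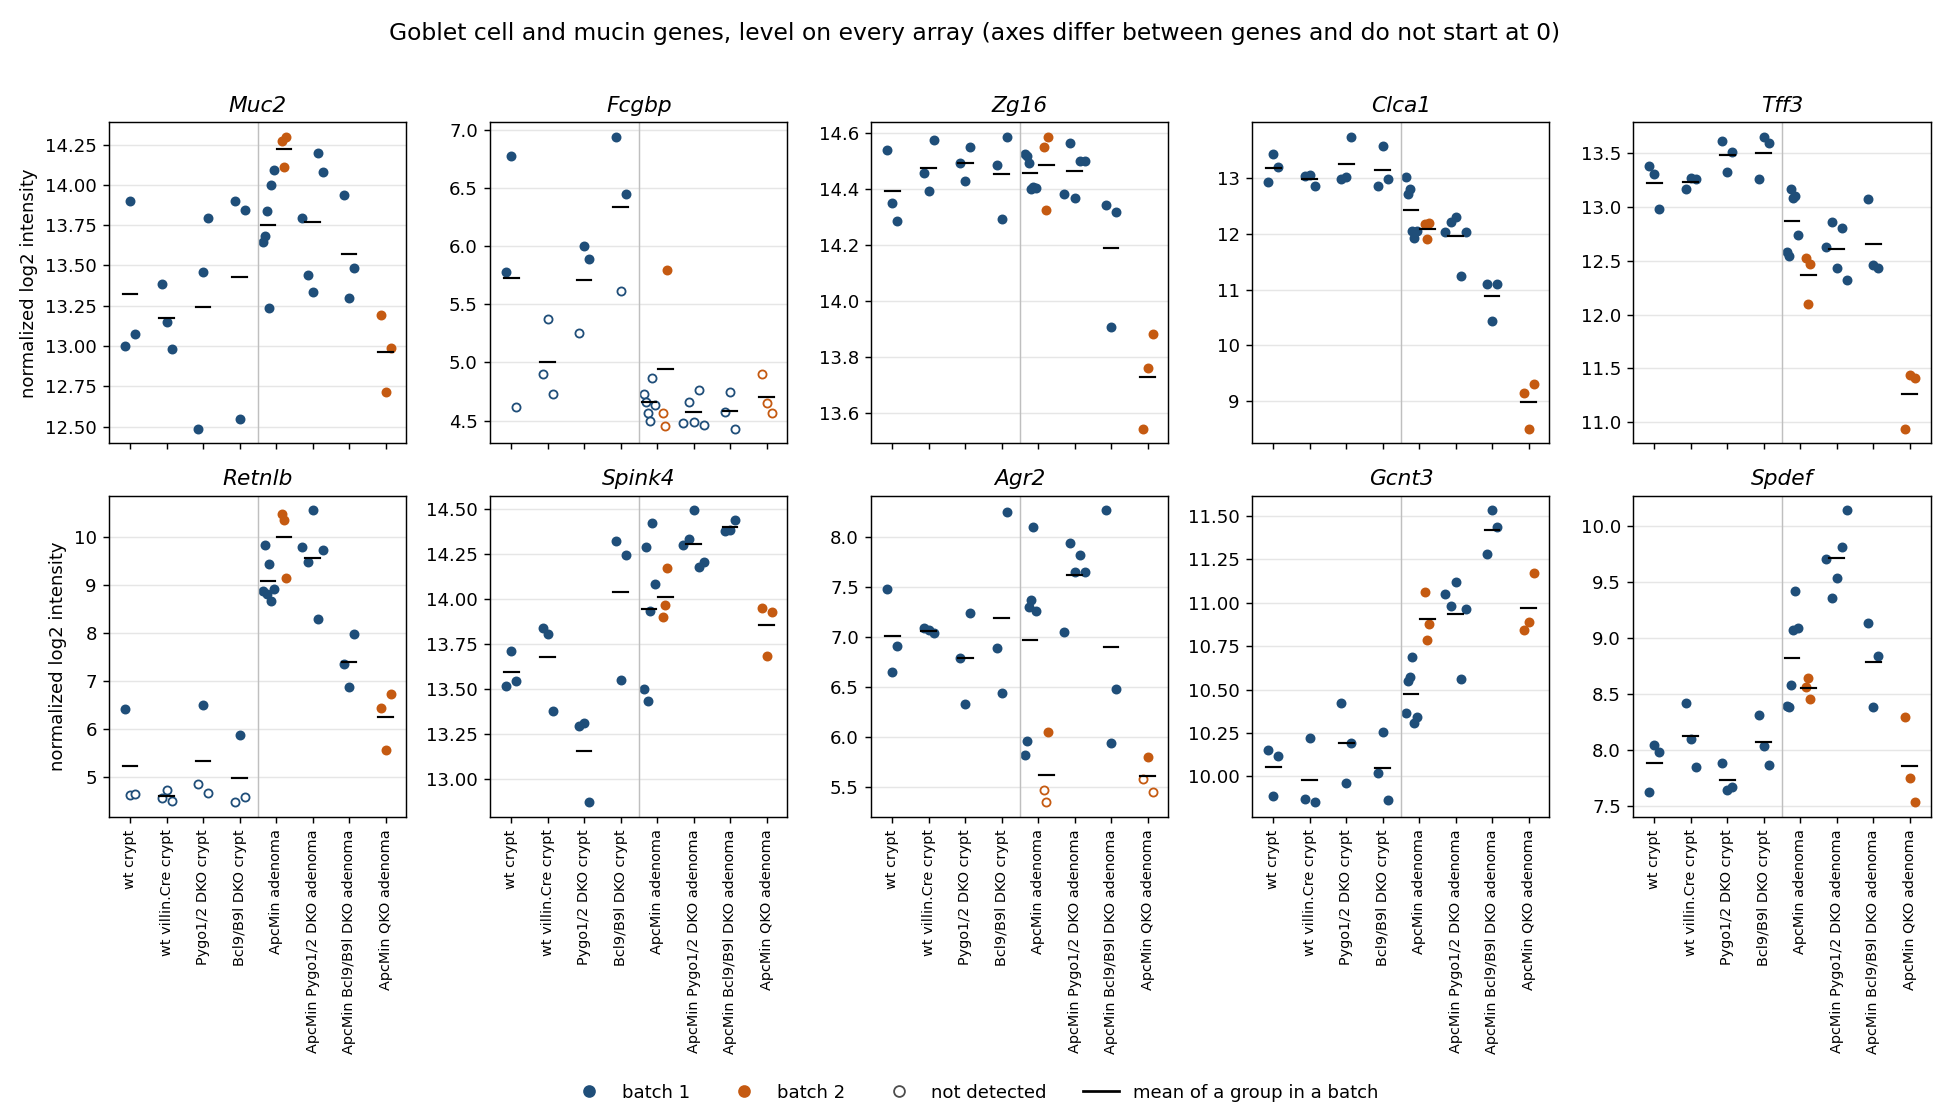
Normalized log2 level (vertical axis) of the 10 genes in the 8 groups (horizontal axis), 1 point for each array, with Clca1 shown by its brighter probe. Blue points are batch 1 and orange points batch 2, open points were not detected (detection p-value of 0.01 or more), and bars are the mean of a group within its batch. Retnlb lies between 4.48 and 6.49 in the crypts and between 8.67 and 10.47 in ApcMin adenomas, and Clca1 is at 9.30 or less in the 3 QKO adenomas.

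The first comparison asked how ApcMin adenomas differ from wt crypts. Retnlb rose most, and Spdef rose with it. The level of Retnlb, the type 2 cytokine-responsive member, was 6.41, 4.63 and 4.64 in wt crypts, of which only the first was detected. In the 6 batch 1 ApcMin adenomas it ran from 8.67 over a median of 8.90 to 9.82, and in the 3 of batch 2 it was 10.47, 10.35 and 9.15. All 9 adenomas stood above all 12 crypts of any genotype. The change was 3.82 ± 0.40 (SE here and below; limma, Benjamini-Hochberg adjusted p = 4.9e-06), and it was 3.95 ± 0.40 with batch 1 alone (adjusted p = 1.41e-05). As 2 of the 3 crypt values lay at background, the size depends on the background correction. With the undetected crypts set to the lowest signal among detected probes of each array, batch 1 adenomas were at least 8.84-fold higher, and on the deposited log2 values, which keep the background signal, the change was 1.97 ± 0.26.

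Spdef was at 7.62, 8.04 and 7.98 in wt crypts, and at 8.38 to 9.42 (median 8.83) in batch 1 ApcMin adenomas and 8.56, 8.64 and 8.46 in batch 2. The 2 groups did not overlap, but the adenomas were lowest in replicates 1, 2 and 3 (8.39, 8.38 and 8.58) and highest in replicates 5, 7 and 9 (9.08, 9.42 and 9.09). The change was 0.93 ± 0.22 (adjusted p = 0.00299), and without wt crypt replicate 1 it was 0.79 and no longer passed (adjusted p = 0.0219).

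These 2 of 11 probes were the only members past the adjusted p of 0.01 used for adenomas, whereas 38.3% of the 19002 probes tested were called in this comparison, 18.4% of the tested probes as higher. The members' share was thus below that of all probes. Clca1, a metalloprotease of the mucus, was 12.92, 13.43 and 13.19 in wt crypts and 11.93 to 13.01 (median 12.38) in batch 1 ApcMin adenomas, a change of -0.75 ± 0.24 that did not pass (adjusted p = 0.0169) except when ApcMin replicate 1 was left out (-0.86, adjusted p = 0.00499). Its level in ApcMin replicates 1, 2 and 3 (13.01, 12.71 and 12.80) lay within the crypt range or next to it, and replicates 5, 7 and 9 (12.06, 11.93 and 12.05) lay below it, the reverse of their order for Spdef.

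Muc2 itself changed by 0.43 ± 0.22 (adjusted p = 0.112) with a 95% interval of -0.04 to 0.90. The trefoil peptide Tff3 was at -0.35 ± 0.18 (adjusted p = 0.117), Spink4 at 0.35 ± 0.21 (adjusted p = 0.176) and the lectin Zg16 at 0.07 ± 0.12 (adjusted p = 0.639). Gcnt3, the core 2 and core 4 branching enzyme, was at 0.42 ± 0.13 (adjusted p = 0.0164), and it passed without background correction (adjusted p = 0.00747) and on the deposited values (adjusted p = 0.00455). None of these is shown to be the same in both tissues by missing the threshold. Agr2 had the widest interval, from -0.96 to 0.86.

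Fcgbp, the large IgG Fc binding protein that is linked to Muc2 in mucus, was detected in wt crypts at 5.78 and 6.77 but not in the third (4.62). In adenomas it was detected on 1 of 20 arrays, ApcMin replicate 8 (5.80), the other 19 lying at 4.43 to 4.90. Its change from wt crypts was -1.06 ± 0.37 (adjusted p = 0.0295), which passed without wt crypt replicate 3 (-1.62, adjusted p = 0.00165) and was -0.54 without wt crypt replicate 2 (adjusted p = 0.221). In batch 1, where no ApcMin array detected it, wt crypts were at least 1.27-fold higher, with the same floor for the undetected arrays.

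Several other RNA classes moved with this comparison, in which 38.3% of all probes tested were called. Of 12 fibroblast and matrix genes, 11 were higher and 1 lower in ApcMin adenomas, and their summed level was 3596 to 4861 in crypts of the 4 genotypes and 10746 to 17120 in batch 1 ApcMin adenomas. Of 12 mast cell and type 2 immunity genes, 8 were higher, led by the mucosal mast cell protease Mcpt1 (5.02 ± 0.50), and the summed level was 1805 to 2468 in crypts and 5296 to 8808 in batch 1 ApcMin adenomas. The enterocyte list summed to 142489 to 183334 in crypts and 87149 to 117536 in batch 1 ApcMin adenomas, with 7 of 16 genes lower and none higher. The enteroendocrine list summed to 16089 to 17247 in wt crypts and 4034 to 6234 in batch 1 ApcMin adenomas, with 9 of 14 genes lower. Of 7 genes that mark the position along the intestine, 1 was higher and 2 lower, and Fabp6 changed by -7.42 ± 0.24 (adjusted p = 8.48e-11). The part of these lists in the goblet values was not tested, and tissue, intestinal position, sex markers and stroma cannot be told apart in this comparison, nor in bulk RNA can fewer cells of a type be told apart from less RNA in each.

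The same comparison within each double knockout gave the same direction for Retnlb and for Clca1. These 2 comparisons share no array with each other or with the first. As in the first, tissue, intestinal position and stroma cannot be told apart in them. In Pygo1/2 DKO the sex markers also differ between adenomas and crypts. In Pygo1/2 DKO, 42.1% of probes were called between adenomas and crypts (21.7% higher and 20.4% lower), and 8 of 11 member probes were, 4 higher and 4 lower. Retnlb was at 4.85, 6.49 and 4.66 in the crypts, with only the second detected, and at 9.78, 9.48, 10.55, 8.28 and 9.71 in the adenomas, a rise of 4.27 ± 0.50 (adjusted p = 3.3e-05) that was at least 10.8-fold with the floor and 2.35 on the deposited values. Spdef went from 7.88, 7.65 and 7.67 to 9.71, 9.36, 9.54, 9.82 and 10.14, a rise of 1.96 ± 0.20 (adjusted p = 1.07e-05). Adenomas and crypts did not overlap for either gene.

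Spink4 also rose between Pygo1/2 DKO crypts (13.29, 13.31 and 12.87) and adenomas (14.18 to 14.49), by 1.13 ± 0.17 (adjusted p = 0.000207). The crypts of this genotype held the lowest Spink4 levels of all 32 arrays. Gcnt3 rose by 0.74 ± 0.19 (adjusted p = 0.00569), a call that was lost on leaving out any of 6 arrays (adjusted p up to 0.0384, without Pygo1/2 DKO crypt replicate 2). Downward, Clca1 fell by 1.26 ± 0.26 (adjusted p = 0.00181) and 1.32 ± 0.25 (adjusted p = 0.000884) by its 2 probes, Tff3 fell by 0.87 ± 0.18 (adjusted p = 0.0018) and Fcgbp (adjusted p = 0.000323) was at least 1.38-fold lower. The Tff3 call was lost without Pygo1/2 DKO crypt replicate 1 (adjusted p = 0.0107), and that of the first Clca1 probe without crypt replicate 3 (adjusted p = 0.0124).

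In Bcl9/B9l DKO, 22.1% of probes were called between adenomas and crypts (11.9% higher and 10.2% lower), and 5 of 11 member probes were, 2 higher and 3 lower. Retnlb was at 4.48, 5.87 and 4.58 in the crypts, again with 1 detected, and 7.34, 6.88 and 7.98 in the adenomas, a rise of 2.51 ± 0.44 (adjusted p = 0.00299). It was at least 3.27-fold with the floor, and on the log2 scale 1.67 without background correction and 0.89 on the deposited values. Gcnt3 rose by 1.38 ± 0.20 (adjusted p = 0.00117) from 10.02, 10.26 and 9.86 to 11.28, 11.53 and 11.43. Clca1 fell by 2.28 ± 0.28 (adjusted p = 0.000559) from 12.86, 13.58 and 12.98 to 11.11, 10.43 and 11.11, with no overlap in either gene. Fcgbp (adjusted p = 0.00391) was at least 1.94-fold lower in adenomas. The Retnlb call was lost without crypt replicate 1 or 3 or adenoma replicate 3 (adjusted p up to 0.0133), and the Fcgbp call without crypt replicate 3 or any 1 of the adenomas (adjusted p up to 0.019). Spdef, at 0.73 ± 0.25 (adjusted p = 0.0477), and Tff3, at -0.85 ± 0.24 (adjusted p = 0.0257), did not pass.

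**Figure D2:**
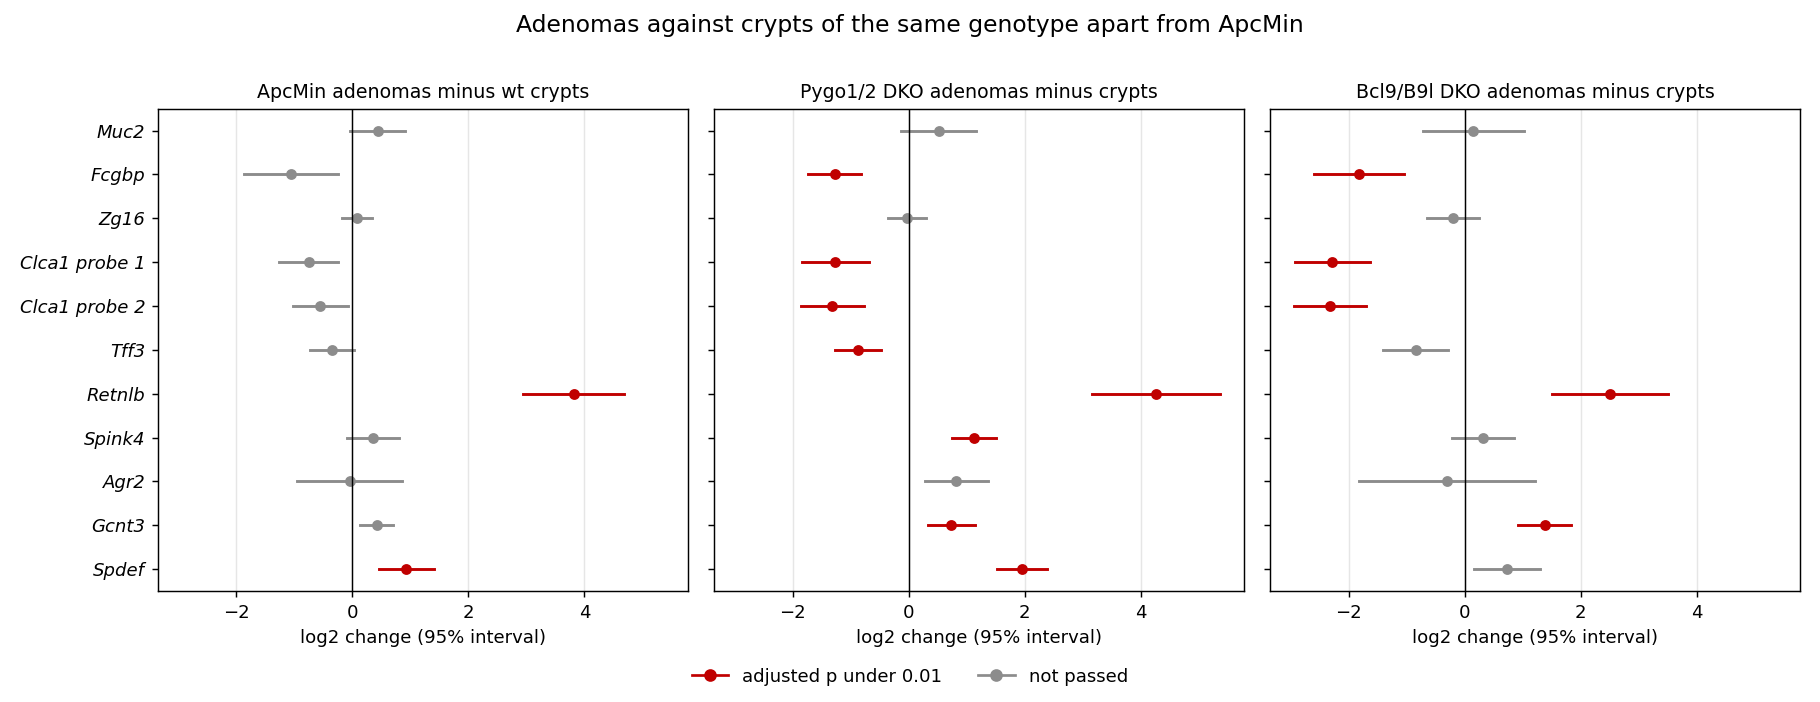
Log2 change (horizontal axis) of each member probe between adenomas and crypts for ApcMin against wt, Pygo1/2 DKO and Bcl9/B9l DKO, with 95% intervals as lines. Red marks an adjusted p under 0.01, and Clca1 appears once for each of its 2 probes. Retnlb is to the right of 0 in all 3 comparisons (3.82, 4.27 and 2.51), and Clca1 is to the left, past the threshold in the 2 knockout comparisons.

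The next comparisons asked what each deletion did to goblet cell genes within ApcMin adenomas. The 3 knockout groups were each fitted with the same 9 ApcMin arrays, with batch as a term. Both DKO changes thus rest on the batch 1 ApcMin arrays and share a control. The QKO change rests on the batch 2 ApcMin arrays. In Pygo1/2 DKO adenomas 0.181% of 19380 probes were called, and 0 of 11 member probes by limma, although 3 had an unadjusted p under 0.05. Spdef came nearest. Its level was 9.71, 9.36, 9.54, 9.82 and 10.14 against 8.38 to 9.42 in batch 1 ApcMin adenomas, so that only the second knockout adenoma lay inside the control range. The change was 0.84 ± 0.19 (95% interval 0.44 to 1.23, adjusted p = 0.0485), and 0.89 with an adjusted p of 0.00618 when all 32 arrays entered 1 model.

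Gcnt3 was at 0.44 ± 0.13 (adjusted p = 0.111) and Retnlb at 0.45 (adjusted p = 0.559) in Pygo1/2 DKO adenomas. Muc2 was at 0.01 ± 0.18, with a 95% interval of -0.38 to 0.41. The median of the 11 member probes was 0.01, against 0.02 for all probes tested. Agr2, close to the detection limit, was at 0.62 ± 0.33 (adjusted p = 0.399).

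In Bcl9/B9l DKO adenomas 2.27% of 18990 probes were called (0.716% higher and 1.55% lower), and 3 of 11 member probes were. Gcnt3 rose and Clca1 fell. The Gcnt3 level was 11.28, 11.53 and 11.43, above every ApcMin adenoma (10.31 to 10.69 in batch 1, median 10.46, and 11.06, 10.78 and 10.88 in batch 2). Its change was 0.89 ± 0.13 (adjusted p = 0.00174). Clca1 stood at 11.11, 10.43 and 11.11, below all 9 ApcMin adenomas (11.91 to 13.01), and changed by -1.51 ± 0.25 (adjusted p = 0.00379) and -1.56 ± 0.25 (adjusted p = 0.00242) by its 2 probes. Both genes lie on 3 knockout arrays: all 3 calls were lost without Bcl9/B9l DKO adenoma replicate 2 (adjusted p = 0.0287 and 0.0184 for Clca1 and 0.013 for Gcnt3), and without replicate 3 only the second Clca1 probe passed.

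Retnlb was lower in these adenomas without passing. Its level of 7.34, 6.88 and 7.98 lay below every ApcMin and Pygo1/2 DKO adenoma, the lowest of which was 8.28, and the change was -1.60 ± 0.32 (adjusted p = 0.0109). It passed within batch 1 (-1.61, adjusted p = 0.00977), under cyclic loess normalization (adjusted p = 0.00719), with a stricter detection filter (adjusted p = 0.00804) and without ApcMin replicate 8 (adjusted p = 0.0051). Within batch 1 the first Clca1 probe missed the threshold (adjusted p = 0.0112). The mucin Muc2 changed by -0.18 ± 0.20 (95% interval -0.62 to 0.25) and Spdef by -0.03 ± 0.23 (95% interval -0.53 to 0.46), and the median of the 11 member probes was -0.18 against 0.03 for all probes.

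Several cell type lists also differed in this comparison, among them the mast cell and type 2 immunity list. In Bcl9/B9l DKO adenomas 5 of its 12 genes were lower than in ApcMin adenomas and none higher, 6 of the 12 were detected on any array, and the summed level was 2484 to 2550, next to the 1805 to 2468 of crypts. Mcpt1 fell by 4.45 ± 0.51. In Pygo1/2 DKO adenomas, where Retnlb was at 8.28 to 10.55, the sum was 3862 to 6503 and 0 of 12 genes were called. Against batch 1 ApcMin adenomas the Bcl9/B9l DKO adenomas also had lower sums for enterocytes (42501 to 58658 against 87149 to 117536), lymphocytes (469 to 799 against 1184 to 3197) and myeloid cells (2112 to 2576 against 2981 to 3732). The enteroendocrine sum was higher (7439 to 9725 against 4034 to 6234). The part of any of these lists in the Retnlb and Clca1 values was not tested. The Bcl9/B9l DKO adenomas also differ from the batch 1 ApcMin adenomas in their sex markers, from which the deletion cannot be told apart.

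More members were called lower in the adenomas labelled QKO than in either DKO, with batch 2 rather than batch 1 ApcMin adenomas as the control. Here 4.41% of 19189 probes were called and 3.12% were called lower, while 6 of 11 member probes, from 5 genes, were lower and none higher: Muc2, Retnlb, Clca1, Zg16 and Tff3. The median of the 11 member probes was -0.90 against 0.03 for all probes tested. The same 6 probes passed when the 3 batch 2 ApcMin adenomas were left out and QKO was set against batch 1 ApcMin adenomas, where batch and group cannot be told apart. Clca1 fell to 9.15, 8.51 and 9.30 against 12.17, 11.91 and 12.20 in the batch 2 ApcMin adenomas, with the second probe at 9.06, 8.42 and 9.07. The groups were more than 2 log2 units apart. The change was -3.00 ± 0.29 (adjusted p = 3.62e-05), 7.98-fold, and -2.91 ± 0.27 (adjusted p = 2.52e-05) by the second probe, and within batch 2 alone it was -2.97 ± 0.20 (adjusted p = 0.000171). Without the batch 2 ApcMin adenomas it was -3.34 ± 0.27 (adjusted p = 1.56e-05).

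Retnlb was at 6.43, 5.57 and 6.73 in QKO adenomas, detected on all 3 arrays, against 10.47, 10.35 and 9.15 in the batch 2 ApcMin adenomas. The highest QKO value was close to that of the single wt crypt that detected Retnlb (6.41). The change was -3.52 ± 0.37 (adjusted p = 6.66e-05), or 11.5-fold, within batch 2 alone -3.30 ± 0.35 (adjusted p = 0.000981), and without the batch 2 ApcMin adenomas -2.70 ± 0.29 (adjusted p = 6.55e-05). Among 12 mast cell and type 2 immunity genes 6 were lower in QKO adenomas, the sum was 2025 to 2860 against 3476 to 6554 in batch 2 ApcMin adenomas, and Mcpt1 changed by -4.33 ± 0.53.

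Muc2 was at 13.19, 12.72 and 12.99 in QKO adenomas against 14.27, 14.11 and 14.30 in batch 2 ApcMin adenomas. Each QKO adenoma lay below all 9 ApcMin adenomas but within the crypt range of 12.49 to 13.90. The change was -1.38 ± 0.22 (adjusted p = 0.00142) and -1.62 ± 0.17 within batch 2 (adjusted p = 0.000981), but -0.85 ± 0.21 without the batch 2 ApcMin adenomas (adjusted p = 0.00705). Leaving out QKO replicate 2, the lowest, gave -1.23 with an adjusted p of 0.0102.

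Tff3 fell to 10.94, 11.44 and 11.41 from 12.53, 12.10 and 12.47, by 1.09 ± 0.22 (adjusted p = 0.00603). These were the 3 lowest Tff3 values of the series. The call was lost on leaving out any 1 of ApcMin replicates 4, 6 and 8 or QKO replicates 1, 2 and 3 (adjusted p up to 0.0319), by cyclic loess (adjusted p = 0.0145) and with no detection filter (adjusted p = 0.0164), while within batch 2 alone it held (-1.08 ± 0.18, adjusted p = 0.00704), and without the batch 2 ApcMin adenomas it was -1.60 ± 0.20 (adjusted p = 0.000139). Zg16 was 13.54, 13.76 and 13.88 against 14.32 or more in all ApcMin adenomas, a change of -0.90 ± 0.15 (adjusted p = 0.00203) on a probe near the top of the array's range, where differences are compressed. Its call was lost without ApcMin replicate 4 (adjusted p = 0.014), ApcMin replicate 8 (adjusted p = 0.0117) or QKO replicate 1 (adjusted p = 0.01), and without all 3 batch 2 ApcMin adenomas the change was -0.80 ± 0.13 (adjusted p = 0.000818).

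The other 5 genes did not pass in QKO adenomas. Spdef was at 8.30, 7.75 and 7.53, below the batch 2 ApcMin adenomas, with a change of -0.65 ± 0.26 (adjusted p = 0.142). Without the batch 2 ApcMin adenomas its change was -0.91 ± 0.25 (adjusted p = 0.0124). Agr2, close to the detection limit, was at -0.01 ± 0.16 within batch 2 (adjusted p = 0.972). Without the batch 2 ApcMin adenomas it was at -1.31 ± 0.42 (adjusted p = 0.0255). Spink4 was at -0.16 ± 0.26 (95% interval -0.73 to 0.40) and Gcnt3 at 0.05 ± 0.15 (95% interval -0.27 to 0.38). The Spink4 probe lay near the top of the array's range (13.69 to 14.17 in QKO and batch 2 ApcMin adenomas), where differences are compressed. Neither change was tested against that of Muc2. The Paneth cell list, which also marks secretory cells, summed to 43964 to 64490 in batch 2 ApcMin and 73631 to 75577 in QKO adenomas. The fibroblast list summed to 4199 to 6258 and 2607 to 3038, with 4 of 12 genes lower. The enterocyte list summed to 49908 to 91259 and 69368 to 79216. The enteroendocrine list summed to 2515 to 4462 and 5768 to 7469, with 4 of 14 genes higher, among them Chga (1.90 ± 0.32, adjusted p = 0.00187). The 7 position genes summed to 12005 to 18209 and 3845 to 8789, a sum that does not by itself give a position. Of them 1 was lower, Fabp6 (-7.62 ± 0.26, adjusted p = 3.05e-09). The part of these lists in the goblet values was not tested, and in this comparison intestinal position and the deletion cannot be told apart.

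**Figure D3:**
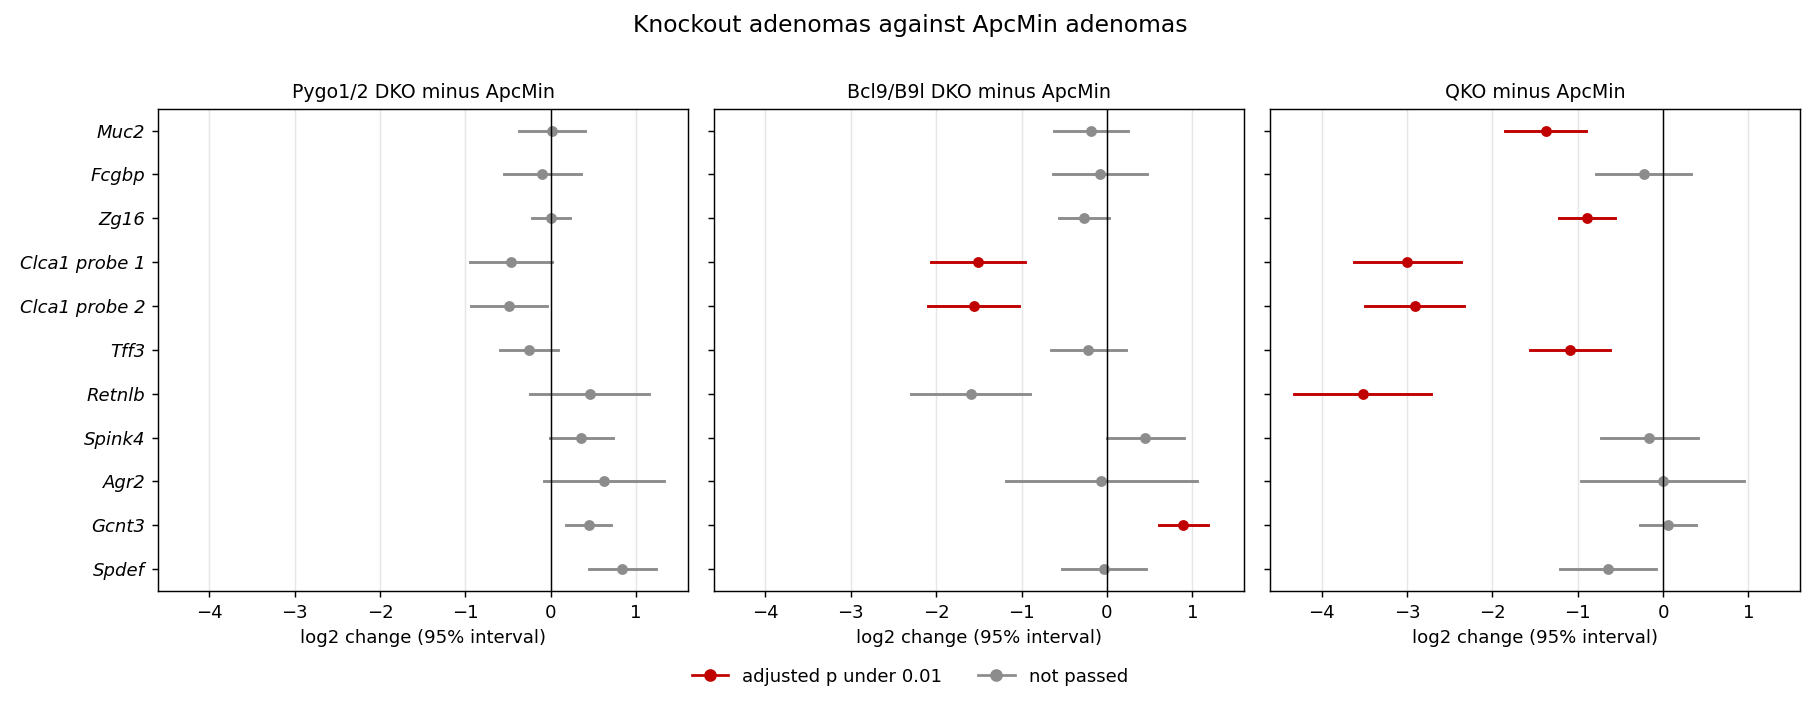
Log2 change (horizontal axis) of each member probe in Pygo1/2 DKO, Bcl9/B9l DKO and QKO adenomas against ApcMin adenomas, with 95% intervals as lines. Red marks an adjusted p under 0.01, and Clca1 appears once for each of its 2 probes. No probe is red for Pygo1/2 DKO, 3 are for Bcl9/B9l DKO and 6, all to the left of 0, are for QKO.

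The knockouts were then set against each other directly. The adenomas labelled QKO and the Pygo1/2 DKO adenomas come from different batches and were joined through the ApcMin arrays of both batches, which takes the difference between the ApcMin adenomas of batch 1 and batch 2 as the batch. Between them 2.57% of probes were called and 2.06% were called lower, and 4 of 11 member probes were lower in QKO. Retnlb was lower by -4.00 ± 0.56 on the log2 scale (adjusted p = 0.000185), and the Clca1 probes by -2.51 ± 0.38 (adjusted p = 0.000426) and -2.40 ± 0.36 (adjusted p = 0.000355). Spdef differed by -1.49 ± 0.32 (adjusted p = 0.00785), with 7.53 to 8.30 in QKO and 9.36 to 10.14 in Pygo1/2 DKO adenomas. This last call was lost on leaving out any 1 of 13 arrays (adjusted p up to 0.0312), by cyclic loess (adjusted p = 0.0138), on the deposited values (adjusted p = 0.0114) and with no detection filter (adjusted p = 0.0205). Muc2 (-1.32 ± 0.31, adjusted p = 0.0141) and Zg16 (-0.78 ± 0.18, adjusted p = 0.0133) were just outside the threshold, and Zg16 passed under 5 of the alternatives, among them the deposited values (adjusted p = 0.00172). Fabp6 came out at -7.21 ± 0.35 (adjusted p = 1.32e-10) in this fit, although its levels were 4.64 to 5.24 in QKO and 4.95 to 5.55 in Pygo1/2 DKO adenomas, and Chga at 2.04 (adjusted p = 0.00567). With the batch 2 ApcMin adenomas left out and no batch term, 7 member probes were lower in QKO, among them Retnlb (-3.17 ± 0.39, adjusted p = 1.57e-05), the first Clca1 probe (-2.86 ± 0.29, adjusted p = 1.83e-06) and Spdef (-1.75 ± 0.25, adjusted p = 6.29e-05). In that setting batch and group cannot be told apart.

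Between Bcl9/B9l DKO and Pygo1/2 DKO adenomas, all of batch 1, 0.774% of probes were called and 0 of 10 member probes by limma, Fcgbp not being detected, and 5 had an unadjusted p under 0.05. Retnlb differed by -2.03 ± 0.41 (adjusted p = 0.0333) with no overlap of the 3 and 5 arrays, and it passed without Pygo1/2 DKO adenoma replicate 4 (-2.34, adjusted p = 0.00595). Spdef was at -0.87 ± 0.23 (adjusted p = 0.0958) and the first Clca1 probe at -1.04 (adjusted p = 0.0879). The 2 groups also differed in sex markers, Xist by -5.11 ± 0.25 (adjusted p = 8.94e-06) and Kdm5d by 2.57 ± 0.19 (adjusted p = 5.22e-05). The mast cell gene Cpa3 differed by -3.61 ± 0.40 (adjusted p = 0.00115). Genotype and sex markers cannot be told apart here, and the part of mast cells was not tested. Between QKO and Bcl9/B9l DKO adenomas 0.307% of probes were called and 0 of 11 member probes, 8 of which had an unadjusted p under 0.05. Clca1 was at -1.47 ± 0.40 (adjusted p = 0.0887), Retnlb at -1.97 ± 0.59 (adjusted p = 0.125), Muc2 at -1.12 ± 0.33 (adjusted p = 0.117) and Gcnt3 at -0.84 ± 0.21 (adjusted p = 0.0569). The intervals, such as -1.81 to -0.43 for Muc2, are wide, and Fabp6 came out at -7.46 ± 0.37 (adjusted p = 2.21e-10) in the same fit. Without the batch 2 ApcMin adenomas and the batch term, 3 member probes were lower in QKO, both of Clca1 (-1.81 ± 0.32, adjusted p = 0.00115, for the first) and Tff3 (-1.38 ± 0.23, adjusted p = 0.000807), where batch and group cannot be told apart.

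The QKO change was also set against the sum of both DKO changes, to ask whether they add on the log2 scale. Here 0.188% of probes were called and 0 of 11 member probes by limma, with 5 at an unadjusted p under 0.05. Gcnt3 had the smallest adjusted p: it was at 0.44 in Pygo1/2 DKO, 0.89 in Bcl9/B9l DKO and 0.05 in QKO adenomas, and the QKO change was 1.28 ± 0.27 log2 units short of the sum, that is -1.28 (adjusted p = 0.0223). It passed on the deposited values (adjusted p = 0.00781) and with all arrays in 1 model (adjusted p = 0.00424). Retnlb was at -2.42 ± 0.75 (adjusted p = 0.118), Spdef at -1.45 ± 0.44 (adjusted p = 0.106) and Muc2 at -1.13 ± 0.42 (adjusted p = 0.206). Fabp6 was at -6.89 ± 0.46 (adjusted p = 7.41e-08). The QKO change in this fit rests on the batch 2 ApcMin adenomas and the DKO changes on those of batch 1. Without the batch 2 ApcMin adenomas and the batch term, 1 member probe passed, Spdef (-1.71 ± 0.34, adjusted p = 0.00509). In that setting batch and group cannot be told apart.

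In crypts neither deletion moved a member past the adjusted p of 0.05 used there. Against villin.Cre crypts 0.267% of all probes were called for Pygo1/2 DKO and 0.0381% for Bcl9/B9l DKO, between the knockouts 0.103%, and between villin.Cre and wt crypts 0.0386%. Of the 11 member probes 0 passed in each by limma, and 2, 1, 1 and 0 had an unadjusted p under 0.05. Clca1 lay between 12.86 and 13.74 and Gcnt3 between 9.85 and 10.42 on all 12 crypt arrays. Spink4 had the steadiest offset, at 13.29, 13.31 and 12.87 in Pygo1/2 DKO crypts and 14.32, 13.55 and 14.24 in Bcl9/B9l DKO crypts, a difference of 0.87 ± 0.25 (adjusted p = 0.572) with no overlap. The Paneth cell list summed to 38640 to 66024 in the Pygo1/2 DKO crypts and to 62747 to 87625 in the other 3 crypt groups, and its part in the Spink4 values was not tested.

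Whether a deletion acted differently in adenomas and in crypts was tested as an interaction. For Pygo1/2 0.0755% of probes were called and 0 of 11 member probes by limma, Spdef coming nearest with 1.26 ± 0.31 (adjusted p = 0.0451). For Bcl9/B9l 0.488% were called and again 0 of 11 member probes. Clca1 was at -1.70 ± 0.37 (adjusted p = 0.0256) and passed without ApcMin replicate 5 (adjusted p = 0.00708), Retnlb was at -2.06 ± 0.53 (adjusted p = 0.0581) and Gcnt3 at 0.88 ± 0.21 (adjusted p = 0.0437). The Bcl9/B9l DKO and batch 1 ApcMin adenomas differ in their sex markers, while every crypt array detected Kdm5d and none Xist. The Bcl9/B9l interaction cannot be told apart from this.

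Other genes of the pathway followed from 3 lists, of which 20 goblet genes, 5 mucins and 15 mucin glycosylation genes were on the array. In ApcMin adenomas against wt crypts, where 38.3% of all probes were called, 7 of 19 tested goblet genes were higher and 5 lower. Their median was 0.21 against -0.08 for all probes. The transcription factors split: Foxa1 (1.56 ± 0.16, adjusted p = 3.73e-06) and Foxa3 rose, while Klf4, a factor of terminal goblet cell differentiation, fell by 1.45 ± 0.18 (adjusted p = 2.25e-05). Among the mucins Muc6 rose by 2.52 ± 0.24 (adjusted p = 2.12e-06) and the membrane mucin Muc4 by 1.14 ± 0.25 (adjusted p = 0.00191). Muc6 is the gel-forming mucin of gastric and duodenal glands. Of 15 glycosylation genes 5 were higher and 2 lower, with the fucosyltransferase Fut2 rising by 2.96 ± 0.20 (adjusted p = 8.15e-08) and the sialyltransferase St3gal4 falling by 2.41 (adjusted p = 6.03e-05). On the deposited values the changes were 0.82 for Muc6, 1.12 for Fut2 and 0.29 for Muc4, whose call was lost (adjusted p = 0.0147), and the St3gal4 call was lost with all arrays in 1 model (adjusted p = 0.0148).

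In Pygo1/2 DKO adenomas 0 genes of the 3 lists passed against ApcMin adenomas by limma, and the goblet median was 0.43. In Bcl9/B9l DKO adenomas 0 of 19 goblet genes passed, but Muc6 fell by 2.47 ± 0.25 (adjusted p = 0.000113), St3gal4 fell by 3.03 ± 0.35 (adjusted p = 0.000265) and Fut2 fell by 1.25 ± 0.22 (adjusted p = 0.00432). The Fut2 call was lost without any 1 of the 3 knockout arrays (adjusted p up to 0.0193) and on the deposited values (-0.66, adjusted p = 0.0146), on which Muc6 was at -0.81 and St3gal4 at -1.93. That of St3gal4 was lost with all arrays in 1 model (adjusted p = 0.011). In QKO adenomas, where 3.12% of all probes were called lower, 4 of 19 goblet genes were lower and 0 higher, with a median of -0.64. The lower genes were Sytl2, a granule docking protein (-1.26 ± 0.16, adjusted p = 0.000249), Bcas1 (-1.49 ± 0.22, adjusted p = 0.000819), Foxa1 (-1.12 ± 0.19, adjusted p = 0.00217) and the kallikrein Klk1 (-1.71 ± 0.31, adjusted p = 0.00333). Leaving out single arrays ended the Foxa1 call (3 arrays, adjusted p up to 0.0132) and the Klk1 call (4 arrays, adjusted p up to 0.0206). The Klk1 call was also lost on the deposited values (adjusted p = 0.0102) and with no detection filter (adjusted p = 0.0159), and that of Foxa1 without the batch 2 ApcMin adenomas (-0.32, adjusted p = 0.124), where Sytl2 was at -0.65 and Bcas1 at -0.86. Muc6 fell there too, by 2.69 ± 0.27 (adjusted p = 3.98e-05), and was at -0.98 on the deposited values.

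The glycosylation genes lower in QKO adenomas were Gcnt1, the core 2 enzyme related to Gcnt3 (-1.66 ± 0.21, adjusted p = 0.000221), and B3gnt5 (-1.31 ± 0.25, adjusted p = 0.00461), the latter call being lost without any 1 of 4 arrays (adjusted p up to 0.0229), by cyclic loess (adjusted p = 0.0212), with no filter (adjusted p = 0.0166) and without the batch 2 ApcMin adenomas (-0.75, adjusted p = 0.0306). Gcnt1 was at -0.84 on the deposited values and at -0.83 without the batch 2 ApcMin adenomas. Its QKO change was also short of the sum of both DKO changes (-2.25 ± 0.40, adjusted p = 0.00972), but this call held under 1 of the 7 alternatives that keep all arrays (adjusted p up to 0.15) and was lost on leaving out single arrays (adjusted p up to 0.0238). Against Pygo1/2 DKO adenomas, QKO adenomas were lower for 6 of 19 goblet genes, 1 of 5 mucins and 3 of 15 glycosylation genes and higher for none. Of all probes 2.06% were called lower there, and the goblet median was -1.10 against 0.02 for all probes. Of the calls in these 3 lists against Pygo1/2 DKO adenomas, Creb3l4, Muc6 and B3gnt5 held under 2 of those 7 alternatives and Sytl2 and Klk1 under 4 of the 7. In the 4 crypt comparisons 0 genes of these lists passed by limma.

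Within groups the 10 genes did not vary as 1 block. Over the 26 batch 1 arrays, with each group's mean taken off, the 2 Clca1 probes correlated at r = 0.91, which gives the probe-to-probe precision. Muc2 and Gcnt3 correlated at r = -0.72 (-0.77 over the adenomas and -0.70 over the crypts), and Agr2 and Tff3 at 0.67 (0.79 and 0.27). The genes most like each member by this measure, among about 16721 compared, were Cpsf1 for Muc2 (0.75), Fa2h for Retnlb (0.76, with the position gene Car1 at 0.72), Rras for Clca1 (0.78, with Klf4 at 0.76), Ist1 for Zg16 (0.73) and Sec11c for Agr2 (0.92). For Spink4 they were Ang4 (0.83), Rps12 (0.82) and Itln1 (0.80), of which Ang4 and Itln1 are on the Paneth cell list. Dhh was most like Spdef (0.82), Snf8 most like Tff3 (0.92), Tubgcp4 most like Fcgbp (0.84) and Ntng1 most like Gcnt3 (0.76). The arrays share RNA quality and depth of signal, and these values describe the arrays only.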

How the data were processed

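RNA of crypts and adenomas was hybridised to bead arrays (32 arrays, 8 groups). The authors exported each probe's intensity and its detection p-value with GenomeStudio (2011.1 in the submitters' processing notes) without background correction or normalization. A second deposited table holds log2 values that the authors made by a variance-stabilizing transformation and quantile normalization in lumi (20824 probes, 17608 with 1 gene symbol, 9 with several and 3207 unnamed), and the sources at hand do not state whether these values were adjusted for batch. That table was used for gene names and as an alternative. The authors tested with limma (3.34.9) and corrected batches with ComBat, which was not rerun: batch entered each fit as a term where both batches were present.

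From the intensities, each comparison's arrays were corrected by normexp in neqc (limma 3.58.1, R 4.3.3, offset 16, negative controls inferred from the detection p-values) and quantile normalized. Probes with a detection p-value under 0.01 on 1 or more arrays of the fit were kept, and lmFit and eBayes p-values were adjusted by Benjamini-Hochberg over all probes kept. The threshold was 0.01 for adenomas and between tissues and 0.05 for crypts, after the methods. QKO and DKO adenomas, which lie in different batches, were compared in a fit of all adenomas. Levels quoted per array come from all 32 arrays normalized together, and a list's summed level is the sum of its genes' normalized intensities, so levels and changes can differ slightly. The fits were tested on simulated data first. The number of arrays limits the precision.

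All probes of the 10 genes were reported, a gene with several led by the brightest. From the lists of other goblet genes (20 on the array), other mucins (5) and mucin glycosylation genes (15), genes past the threshold were named, up to 4 for each list and comparison. They were named for their small p or because their calls depended on the processing, and not every comparison has them named. Other cell types are given as list counts and summed levels with at most 3 genes of a list, and likeness as the highest Pearson correlations over the 26 batch 1 arrays with group means taken off, at most 3 genes for each member. The genes and lists were chosen with earlier results of these data known. Promoter windows and motif counts were read from the RefSeq table with Python 3.11.15, and figures drawn with matplotlib 3.10.9.

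Alternatives were no background correction, cyclic loess, the deposited log2 values, no and a stricter detection filter, 1 batch only, all arrays in 1 model, the replicate number as a block, and each array left out in turn. Leaving out the 3 batch 2 ApcMin arrays was added after seeing the data.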

Additional observations from a re-analysis of the deposited data

Results flagged for a closer look

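In Pygo1/2 DKO adenomas, replicate 4 lay apart from the other 4 for 2 members. Its Clca1 level by the brighter probe was 11.24, with the next at 12.03, and its Gcnt3 level was 10.56, with the next at 10.97. These were the only such gaps in 22 groups of values tested for members with 4 to 10 arrays, and chance flags about 1 in 20 groups.

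The change against ApcMin adenomas differed between the adenomas labelled QKO and Pygo1/2 DKO adenomas for 3 genes, tested directly with limma over all probes. The difference in log2 change was -4.00 for Retnlb (adjusted p = 0.000185), -2.51 and -2.40 for the 2 Clca1 probes (adjusted p = 0.000426 and 0.000355) and -1.49 for Spdef (adjusted p = 0.00785). In level, all 3 QKO adenomas were below all 5 Pygo1/2 DKO adenomas for each of these genes. The ApcMin adenomas that join the batches differed in Fabp6 by batch, and its part in these values was not tested.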

How the results depend on the processing

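No change of a member or related gene turned its direction past the threshold under any alternative. Under the planned settings other than leaving out 1 array, 1697 of 1848 values (256 results) kept their direction and side of the threshold, 131 fell out of it and 20 entered it.

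Counts of member probes called moved by more than 1.5 times as follows. ApcMin adenomas minus wt crypts gave 2, and 1 with the replicate block. Pygo1/2 DKO minus ApcMin adenomas gave 0, and 1 with all arrays in 1 model. Bcl9/B9l DKO minus ApcMin adenomas gave 3, and 1 with no detection filter and 0 with the block. Bcl9/B9l DKO minus Pygo1/2 DKO adenomas gave 0, and 2 with all arrays in 1 model and 1 with the block. QKO minus Pygo1/2 DKO adenomas gave 4, and 0 with the block. The QKO change minus the sum of both DKO changes gave 0, and 1 on the deposited values and with all arrays in 1 model. Between adenomas and crypts, Pygo1/2 DKO gave 8, and 5 with the block, and Bcl9/B9l DKO gave 5, and 3 with no filter and with the block. With the batch 2 ApcMin adenomas left out and no batch term, an alternative chosen after seeing the data, QKO minus ApcMin adenomas gave 6 as before, QKO minus Pygo1/2 DKO gave 7, QKO minus Bcl9/B9l DKO 3 and the sum 1. The cause was not tested.

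With each array left out in turn, the counts ran from 1 to 3 for ApcMin minus wt crypts (1 without wt crypt replicate 1), 0 to 0 for Pygo1/2 DKO and 0 to 4 for Bcl9/B9l DKO minus ApcMin adenomas, 4 to 6 for QKO minus ApcMin adenomas, 0 to 1 for Bcl9/B9l minus Pygo1/2 DKO adenomas, 0 to 0 for QKO minus Bcl9/B9l DKO adenomas, 3 to 5 for QKO minus Pygo1/2 DKO adenomas, 0 to 0 for the sum, 0 to 0 in each of 4 crypt comparisons, 7 to 8 for Pygo1/2 DKO and 3 to 5 for Bcl9/B9l DKO adenomas minus crypts (3 without Bcl9/B9l DKO crypt replicate 3 or adenoma replicate 3), and 0 to 0 for the Pygo1/2 and 0 to 1 for the Bcl9/B9l interaction.

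In 0 of 21 pairs of groups was every correlation between the deviations of same-numbered arrays over 0.1 (r from -0.41 to 0.43). In some pairs all were positive, as for villin.Cre crypts and ApcMin adenomas (0.09 to 0.31). In others all were negative, as for Pygo1/2 DKO crypts and adenomas (-0.18 to -0.02). This check cannot tell a weak link between same-numbered arrays from none. The block could not be estimated for QKO minus ApcMin adenomas and was not run there. Signal limits Agr2, Fcgbp and, in crypts, Retnlb, whose fold depends on the background correction, and the top of the range limits Zg16 and Spink4.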
